A study of Danio rerio with 4 samples.

Results

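The proteasome subunit genes of the zebrafish were compared between control and MZtulp3 embryos at 2 dpf (days post fertilization). Members were the genes whose symbol begins with psma, psmb, psmc, psmd, psme, psmf or psmg followed by a number, and 56 of the 31388 genes in the table matched. Of these, 50 had at least 10 normalized counts in at least 2 of the 4 libraries and were tested, among 14674 genes tested in all. They comprise 17 of the 23 matching genes of the core particle, all 19 matching genes of the 19S regulatory particle and 14 others. These are 3 chaperones of 19S assembly, 3 chaperones of 20S assembly, 6 activators and inhibitors and 2 genes that share the symbol but encode no subunit. Proteasome genes with other symbols, such as sem1 and adrm1, are not in the 19S counts and are given separately.

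Poly(A)-enriched RNA came from whole embryos, in 2 control libraries, whose genotype is given as WT, and in 2 MZtulp3 libraries, each group as biological replicates 1 and 2. MZtulp3 embryos are maternal-zygotic knockouts, which lack the gene product of the mother as well as their own, from a CRISPR/Cas9-induced line (tulp3 uf3/uf3), and fish of the AB/TL background served as wild type in the study. The study lists the mutant line with the transgene li1Tg in AB/TL. Whether the embryos of either group taken for RNA carried this transgene is not stated. The MZtulp3 embryos taken for RNA had been selected for severe ventral curvature. Genotype and selection therefore cannot be told apart. No drug or other treatment is given for either group, and neither the number of embryos per library nor separate clutches are stated, so the p-values measure only the spread between these libraries.

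The 26S proteasome degrades proteins that carry ubiquitin chains. Its 20S core is a barrel of stacked rings, in which the outer alpha rings (psma genes) gate the entrance and the inner beta rings (psmb genes) hold the active sites, while the 19S particle binds, unfolds and feeds in the substrate through a ring of ATPases (psmc genes) and the base and lid subunits (psmd genes). Subunits of a complex are needed in fixed ratios, and in mammals and yeast their genes are known to be transcribed together, in mammals by NFE2L1. Other activators can replace the 19S particle, and immune cells exchange the catalytic beta subunits for inducible ones.

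Between 22589725 and 29735214 reads were counted on genes per library. The 13 mitochondrially encoded genes took 57.87% and 40.95% of them in control replicates 1 and 2 and 52.58% and 71.05% in MZtulp3 replicates 1 and 2, and the members took 0.351%, 0.384%, 0.304% and 0.395% of the remaining reads in the same order. The targeted gene tulp3 had 0 and 36 reads in the control replicates and 0 in both MZtulp3 replicates, so it was not detectable in 3 libraries, 1 of them a control, and does not check the labels. The 3 epidermal keratins krt4, krt5 and cyt1, which mark the skin of the embryo, summed to 176417 and 128036 normalized counts in control and to 309915 and 423940 in MZtulp3 embryos. DESeq2 called 3 of 3 higher, against 2.27% of all genes with its adjusted p called. By limma 0 were called, against 0.0% of all genes. Skin was not alone. The neuron marker snap25a had 2421 and 3527 against 1675 and 675, while elavl3 overlapped. The liver and yolk layer marker apoa2 had 613 and 629 against 2362 and 2722, while tfa overlapped. In bulk RNA, a change in the number of cells of a type and a change in RNA per cell cannot be told apart.

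None of the 50 proteasome genes passed the threshold of 0.05 on the adjusted p by limma's moderated test with Benjamini-Hochberg adjustment (adjusted p from 0.384 to 0.997). Over all genes tested the share called was 0.0%, so this count is not particular to the members. At an unadjusted p under 0.05 stood 2 members, or 4.0%, which were the beta ring gene psmb2 (higher in MZtulp3 embryos) and psmc3ip (lower), against 12.8% of all genes. The filter was passed through 1 group only by 2 members, psmc3ip through control and psme1 through MZtulp3, so the filter fixed the direction of these genes. DESeq2 on the recovered reads called 0 of the 47 members it gave an adjusted p, the smallest of which was 0.347. Of all 14343 genes with such a value it called 2.27%. By edgeR's quasi-likelihood test 0 members were called, and 0 had an unadjusted p under 0.05 by either DESeq2 or edgeR.

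Of the 50 members, 31 were higher and 19 lower in MZtulp3 embryos. Their median log2 fold change (MZtulp3 minus control, on the scale of log2 of the normalized count plus 2) was 0.16, beside -0.091 over all genes tested, and it changed sign to -0.063 when libraries were scaled to their nuclear reads, a scaling that shifted the median of all genes to -0.29. Relative to the median of all genes, the members stood 0.25 higher under the deposited scaling and 0.23 higher under the scaling to nuclear reads. Rescaling shifts most genes nearly alike, so these values could hardly differ. The gap to all genes was 0.14 among genes with at least 10 in every library and 0.16 to 0.36 with a library left out. Among genes with a mean of at least 100 normalized counts, the medians were 0.12 for the members and -0.035 for all genes. Both MZtulp3 libraries lay above both control libraries for 15 members (30.0%), against 20.0% of all genes, and below them for 5 members (10%), against 23.3% of all genes. Here and below, shares of genes with separate groups are those under the deposited scaling and can differ under another.

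The size of the differences was small beside that of other genes. The median absolute log2 fold change was 0.36 for the members and 0.88 for all genes tested. Since members are read more deeply than most genes, with a median of 713 against 117 normalized counts, the comparison was repeated among genes with a mean of at least 100. There the median was 0.29 for 44 members and 0.68 for 7956 genes. Replicates of a group differed less in these 44 members too, by a median of 0.42 on the log2 scale in control and 0.35 in MZtulp3 embryos, against 0.58 and 0.65 over all genes with such a mean. Depth was not matched by this cut. The median level was still 873 normalized counts for these members against 281 for these genes. A difference of more than 1 on the log2 scale was found for 5 members (10%) and for 45.7% of all genes tested, and for none of the 36 core and 19S subunits, whose log2 fold changes ran from -0.88 to 0.88. The 95% interval included 0 for 35 of the 36. It lay within 1 log2 unit of 0, a 2-fold difference, for 14 of them and within 1.5 units for 29, so the interval of most subunits reached past a 2-fold difference.

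**Figure D1:**
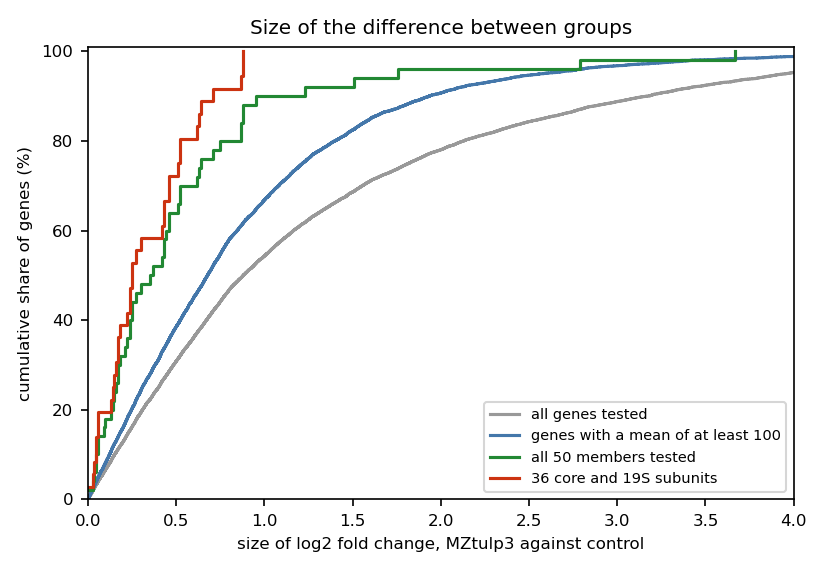
Cumulative share of genes (y axis, %) against the size of the log2 fold change between MZtulp3 and control embryos (x axis, log2 units) for all genes tested, genes with a mean of at least 100 normalized counts, all 50 members tested and the 36 core and 19S subunits. The curve of the subunits reaches 100% at 0.88, while 45.7% of all genes tested lie beyond 1.

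Core and 19S genes were compared as a description, without a test over genes. Of the core genes 13 were higher and 4 lower in MZtulp3 embryos (median log2 fold change 0.25), and of the 19S genes 8 were higher and 11 lower (median -0.13). Over all genes tested 47.2% were higher and the median was -0.091, so the 19S genes lay near the other genes. The 19S median was -0.035 by DESeq2, -0.045 by edgeR, -0.032 without control replicate 2 and -0.0063 without MZtulp3 replicate 2. Scaled to nuclear reads, 10 core genes were higher and 7 lower (median 0.033) and 6 of the 19S genes were higher and 13 lower (median -0.35). The difference between the medians was 0.38 under both. Rescaling libraries shifts all of these genes nearly alike, so it could hardly change this difference and does not test it. Counting every psmc, psmd, psme, psmf and psmg gene as regulatory brought this difference to 0.16. Both MZtulp3 libraries lay above both control libraries for 5 core genes (29.4%) and 5 of the 19S genes (26.3%), against 20.0% of all genes, and below them for 1 (5.88%) and 3 (15.8%), against 23.3%.

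The balance of core and 19S reads within a library does not depend on how libraries are scaled. Core genes took 46.8% of the reads of both particles in control replicate 1 (95% Wilson interval 46.2 to 47.3%) and 42.0% in control replicate 2 (41.5 to 42.4%). In MZtulp3 replicate 1 the share was 47.9% (47.4 to 48.5%) and in replicate 2 it was 51.3% (50.7 to 51.8%). Both MZtulp3 libraries were above both controls, at 49.6% ± 2.4 (SD, n = 2) against 44.4% ± 3.39, but the nearest libraries of the groups were 1.1 percentage points apart while the control replicates were 4.8 apart and the MZtulp3 replicates 3.4. The groups differed by 5.2 percentage points in their means, close to the gap between the control replicates. Leaving out control replicate 2 brought the difference to 2.8, and leaving out control replicate 1 to 7.6. The smallest two-sided p that an exact permutation test allows with 2 libraries per group is 0.333, and the intervals cover counting error only.

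The difference was 4.25 percentage points without psmd4b, a 19S gene in which control replicate 2 stood apart, and 4.45 without the core gene psmb2. The summed keratins given above had the same order of the 4 libraries as the core share. So did the summed genes of the chaperonin CCT, with 22224 and 21053 normalized counts in control and 25945 and 27758 in MZtulp3 embryos. The lens marker crybb1 had it too (276 and 250 against 403 and 655), so this order is not particular to the keratins. The neuron marker snap25a had the reverse order, and so had its sum with elavl3. By itself elavl3 did not (1120 and 1526 in control, 1301 and 1842 in MZtulp3 embryos). Summed muscle markers had another order. The mitochondrial share was lowest in the library with the lowest core share and highest in the one with the highest. The part of these genes and of the mitochondrial share in the core share was not tested.

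**Figure D2:**
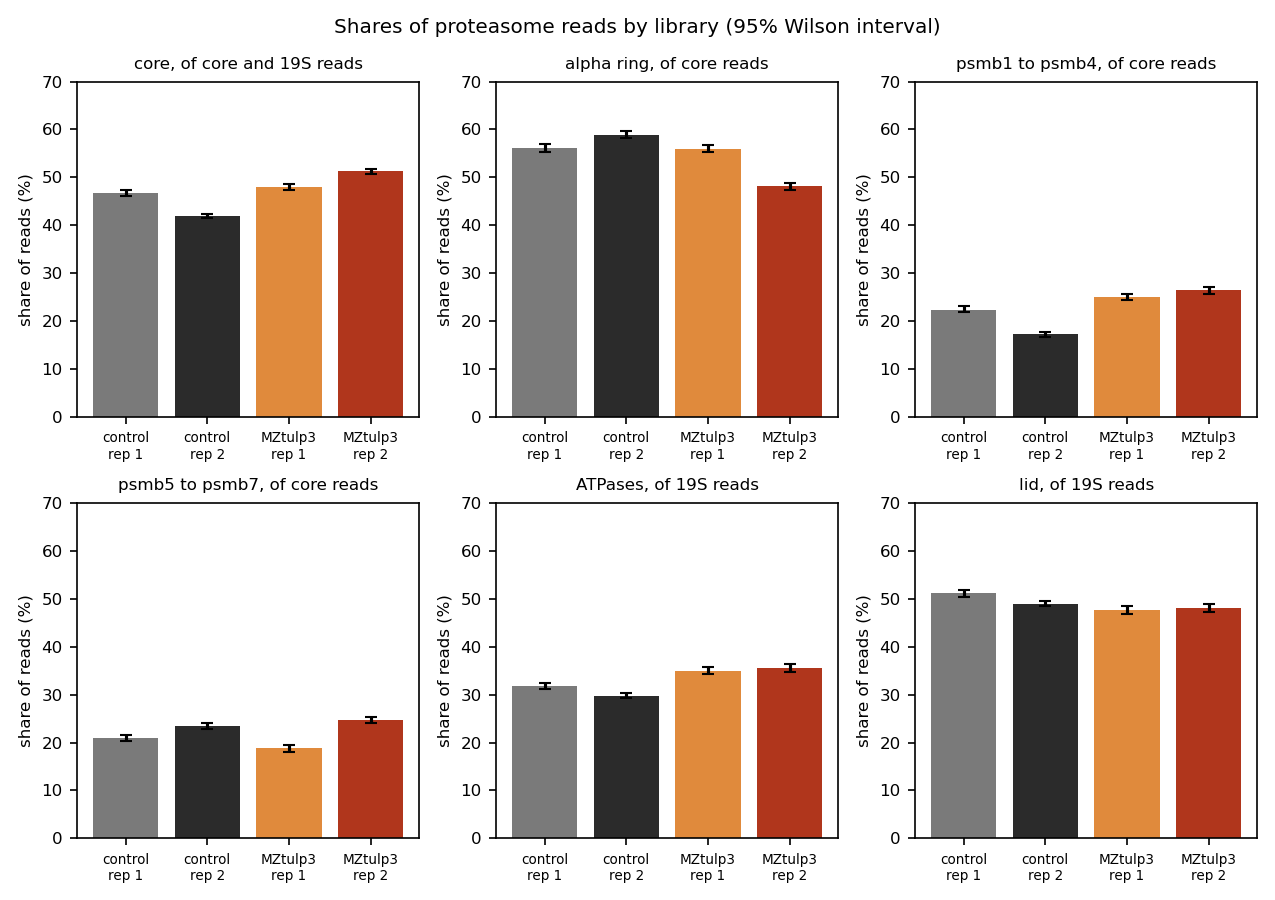
Shares of reads (y axis, %) in each of the 4 libraries for core genes among core and 19S reads, for the alpha ring, psmb1 to psmb4 and psmb5 to psmb7 among core reads, and for ATPases and lid genes among 19S reads. Bars are single libraries and error bars are 95% Wilson intervals, which cover counting error only. The core share was 46.8% and 42.0% in control and 47.9% and 51.3% in MZtulp3 embryos, and MZtulp3 libraries also stand above both controls for psmb1 to psmb4 and the ATPases, below them for the lid and, by 0.1 percentage points, for the alpha ring, and on either side of them for psmb5 to psmb7.

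Among the alpha ring genes, which form the gate of the core, 9 were tested and 6 were higher (median log2 fold change 0.17), and 4 were higher and 5 lower when scaled to nuclear reads. The highest was psma8. Its mammalian namesake is known as the testis form of an alpha subunit, but no psma7 gene was among the members, and the name does not show a testis form here. Normalized counts of psma8 were 729 and 815 in control and 1050 and 1341 in MZtulp3 embryos. All MZtulp3 values were above the controls (log2 fold change 0.62, standard error 0.32, adjusted p = 0.468 by limma's moderated test with Benjamini-Hochberg adjustment). The lowest was psma4, with 1447 and 1371 in control and 1286 and 1231 in MZtulp3 embryos. Its groups did not overlap either, yet they differed by only -0.16 on the log2 scale (standard error 0.28, adjusted p = 0.856 by limma). The other alpha ring genes lay between -0.058 and 0.46. As a share of core reads the alpha ring took 56.1% and 58.9% in control and 56.0% and 48.1% in MZtulp3 embryos, so replicate 2 of MZtulp3 stood apart from the other libraries.

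The structural beta subunits, which carry no active site, were higher in MZtulp3 embryos in 4 of 4 genes under every scaling run. Under the deposited scaling 47.2% of all genes were higher. Their median log2 fold change was 0.79 for these 4 genes, and none of the 4 passed the threshold. Normalized counts of psmb2 were 890 and 639 in control and 1095 and 1761 in MZtulp3 embryos. The lowest MZtulp3 value was above the highest control value, and the log2 fold change was 0.88 (95% interval 0.0072 to 1.75, unadjusted p = 0.0486 and adjusted p = 0.39 by limma). It was 0.54 without MZtulp3 replicate 2 and 1.22 without MZtulp3 replicate 1.

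Normalized counts of psmb3 were 341 and 274 in control and 530 and 595 in MZtulp3 embryos (log2 fold change 0.87, standard error 0.41, adjusted p = 0.434 by limma). Those of psmb4 were 1071 and 808 in control and 1332 and 1743 in MZtulp3 embryos (log2 fold change 0.71, standard error 0.32, adjusted p = 0.417 by limma). In both genes the MZtulp3 libraries were higher than the control libraries without overlap. With psmb2, this held under the deposited scaling for 3 of only 4 structural genes (75.0%), against 20.0% of all genes. Relative to nuclear reads psmb3 stayed separate, while psmb2 and psmb4 overlapped, with MZtulp3 replicate 1 below control replicate 1. The fourth gene, psmb1, had 948 and 774 in control and 1143 and 931 in MZtulp3 embryos, and its groups overlapped (log2 fold change 0.27). These genes together took 22.4% and 17.2% of core reads in control and 25.0% and 26.4% in MZtulp3 embryos. The groups did not overlap, but their nearest libraries were 2.6 percentage points apart and the control replicates 5.2.

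Of the constitutive catalytic subunits, 2 of 3 were higher, and 1 of 3 when scaled to nuclear reads, and in none were the groups separate. The chymotrypsin-like subunit gene psmb5 had 762 and 1149 normalized counts in control and 1089 and 1925 in MZtulp3 embryos (log2 fold change 0.63, standard error 0.39, adjusted p = 0.551 by limma), and its log2 fold change was 0.22 without MZtulp3 replicate 2 and 1.04 without MZtulp3 replicate 1. The caspase-like subunit gene psmb6 had 1046 and 1226 in control and 1058 and 1482 in MZtulp3 embryos, and the trypsin-like subunit gene psmb7 had 1224 and 1043 against 933 and 1288. The values of psmb6 and psmb7 overlapped, with log2 fold changes of 0.14 and -0.043, and each changed sign when 1 MZtulp3 library was left out. As a share of core reads psmb5 to psmb7 took 20.9% and 23.5% in control and 18.8% and 24.6% in MZtulp3 embryos, with overlapping groups.

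Inducible subunits of the immunoproteasome were at or near 0. Reads of psmb8a and psmb9a, the zebrafish genes of the interferon-inducible catalytic subunits, of psmb13a and of psmb11b, related to the catalytic subunit of the mammalian thymus, were 0 in all 4 libraries. A count of 0 allows a level of up to 3 reads, which is 1.98 to 3.54 normalized counts depending on the library. This bound covers counting error only, not reads that failed to align to the genome build. A further gene, psmb12, had 4 reads in control replicate 2 and 0 elsewhere. The exception was psmb10, the inducible counterpart of psmb7, with 72.2 and 56.1 normalized counts in control and 45.8 and 163 in MZtulp3 embryos. The MZtulp3 replicates lay on either side of the controls (log2 fold change 0.43, 95% interval -2.3 to 3.17), and without replicate 2 the value was -0.46. Of 7 leukocyte markers, whose cells carry such subunits, 5 were tested and spi1b and ptprc were at 0 in all 4 libraries. The 7 summed to 324 and 452 in control and to 198 and 362 in MZtulp3 embryos, with overlapping sums. Of the 5 tested, 4 were lower and 1 was higher in MZtulp3 embryos. The higher one was mpx, a neutrophil enzyme gene, with 3.85 and 0 in control and 75.6 and 40.1 in MZtulp3 embryos. It passed the filter through the MZtulp3 libraries alone, which fixed its direction. The part of these cells in the values of psmb10 was not tested.

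**Figure D3:**
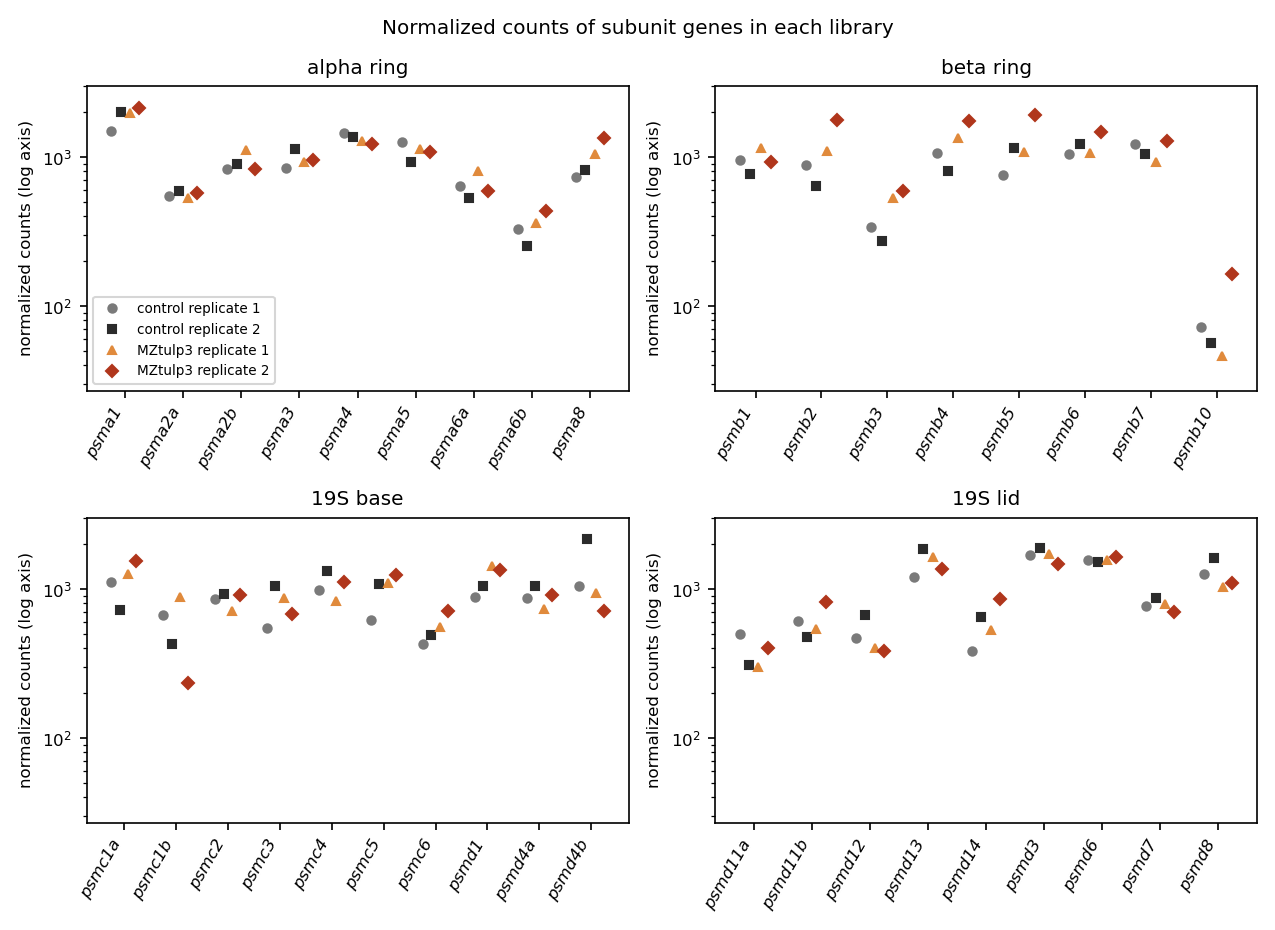
Normalized counts (y axis, log scale) of the 36 tested core and 19S genes, 1 symbol per library, in panels for the alpha ring, the beta ring, the 19S base and the 19S lid. Values are not corrected for gene length, so heights may be compared within a gene and not between genes. Libraries of psmb2, psmb3 and psmb4 are ordered with both MZtulp3 values above both controls, and psmd4b shows 2158 in control replicate 2 against 715 to 1047 in the other libraries.

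The ATPases of the 19S base unfold the substrate and open the gate. Of 7 genes, 4 were higher and 3 lower in MZtulp3 embryos (median log2 fold change 0.033), and 3 were higher and 4 lower when scaled to nuclear reads. Normalized counts of psmc1a were 1121 and 724 in control and 1268 and 1552 in MZtulp3 embryos (log2 fold change 0.64, standard error 0.34, adjusted p = 0.486 by limma). Those of psmc5 were 623 and 1073 in control and 1096 and 1236 in MZtulp3 embryos (log2 fold change 0.51, adjusted p = 0.605 by limma). Those of psmc6 were 427 and 493 in control and 556 and 713 in MZtulp3 embryos (log2 fold change 0.46, adjusted p = 0.654 by limma). In these 3 genes (42.9%) both MZtulp3 libraries were above both controls under the deposited scaling, against 20.0% of all genes. Below both controls were 0 ATPase genes under this scaling, against 23.3% of all genes. Relative to nuclear reads the groups of all 3 genes overlapped, since MZtulp3 replicate 1 fell below a control library in each. Without control replicate 2 the log2 fold change of psmc1a was 0.32, and without control replicate 1 that of psmc5 was 0.12.

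The other 4 ATPase genes overlapped between the groups. Normalized counts of psmc2 were 862 and 922 in control and 708 and 910 in MZtulp3 embryos, and those of psmc4 were 985 and 1326 against 836 and 1109, with log2 fold changes of -0.15 (0.03 without MZtulp3 replicate 1) and -0.25. Those of psmc3 were 547 and 1041 in control and 876 and 680 in MZtulp3 embryos, a log2 fold change of 0.033 that was negative by DESeq2, by edgeR and scaled to nuclear reads. The paralog psmc1b had 673 and 428 in control and 886 and 234 in MZtulp3 embryos, so the MZtulp3 replicates were the highest and the lowest library, and its log2 fold change of -0.24 was 0.025 by DESeq2 and by edgeR. As a share of 19S reads the ATPases took 31.8% and 29.8% in control and 34.9% and 35.5% in MZtulp3 embryos. Here the nearest libraries of the groups were 3.1 percentage points apart, more than the 2.0 between the control replicates and the 0.6 between the MZtulp3 replicates, although no p below 0.333 can be reached. The share was 1 of 6 compared within the core and 19S particles, and it was chosen after the values of the members had been seen.

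Of the base subunits without ATPase activity, psmd1, the scaffold on which substrate receptors dock, was higher in MZtulp3 embryos and psmd4b was lower. Normalized counts of psmd1 were 887 and 1055 in control and 1434 and 1342 in MZtulp3 embryos. Its MZtulp3 values lay above the controls (log2 fold change 0.52, standard error 0.29, adjusted p = 0.507 by limma). Those of psmd4b, one of a pair of genes for the ubiquitin receptor of the base, were 1047 and 2158 in control and 933 and 715 in MZtulp3 embryos. Its groups did not overlap, but control replicate 2 stood far above the other control, and without that library the log2 fold change of -0.88 (adjusted p = 0.431 by limma, standard error 0.41) was -0.36, while it was -1.4 without control replicate 1.

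The lid deubiquitinates the substrate before it enters the core. Of 9 lid genes 3 were higher and 6 lower (median log2 fold change -0.13), and 2 were higher and 7 lower when scaled to nuclear reads. The highest was psmd14, the deubiquitinase itself, with 386 and 652 normalized counts in control and 534 and 858 in MZtulp3 embryos, and these values overlapped (log2 fold change 0.43, standard error 0.44, adjusted p = 0.733 by limma). The lowest was psmd12, a scaffold subunit of the lid, with 468 and 671 in control and 401 and 381 in MZtulp3 embryos. Both MZtulp3 values were below both controls (log2 fold change -0.52, standard error 0.41, adjusted p = 0.635 by limma). As a share of 19S reads the lid took 51.2% and 48.9% in control and 47.7% and 48.1% in MZtulp3 embryos, the groups 0.8 percentage points apart and the control replicates 2.3. The other 7 lid genes lay between -0.42 and 0.30. Among them psmd6 was nearly level across the libraries, with 1554 and 1521 in control and 1559 and 1636 in MZtulp3 embryos.

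**Figure D4:**
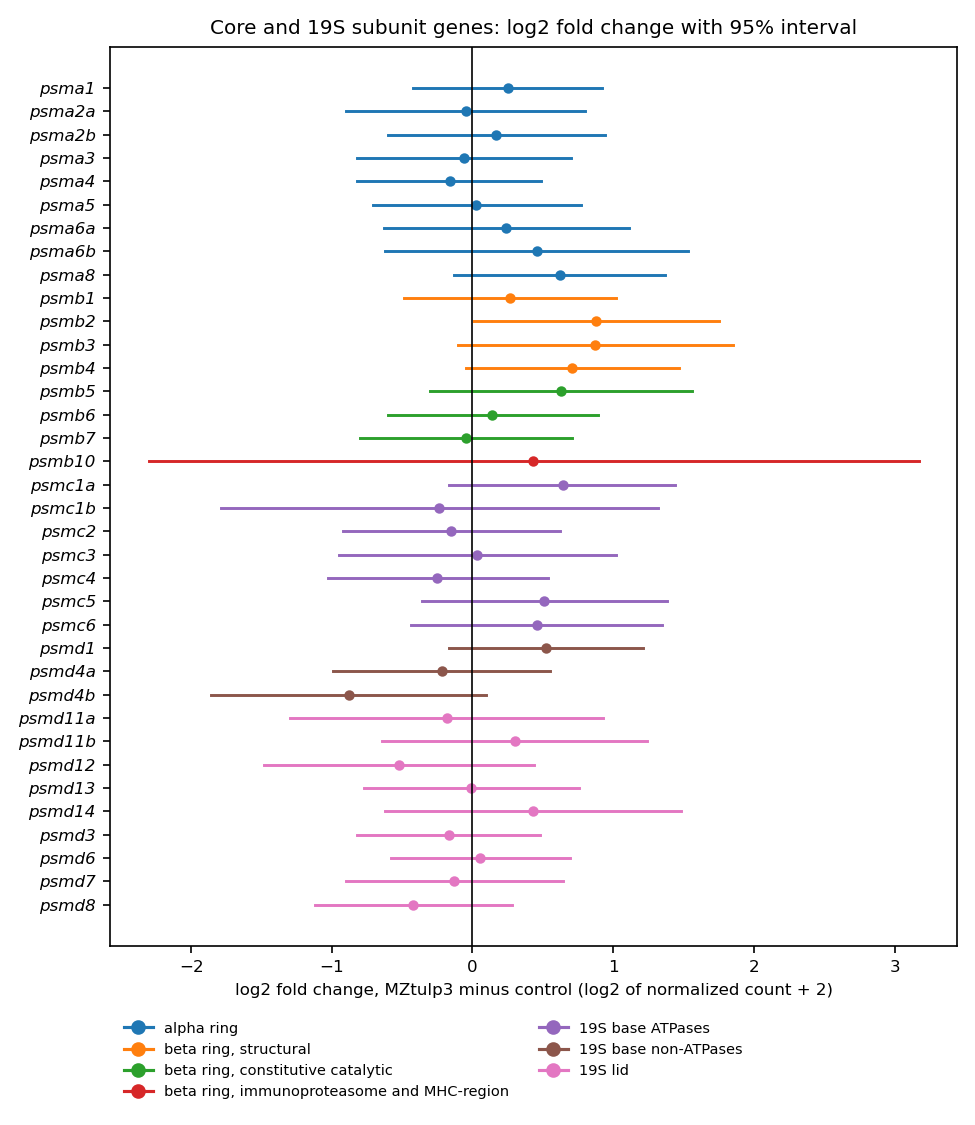
Log2 fold change (x axis, MZtulp3 minus control, log2 of the normalized count plus 2) with its 95% interval from limma for the 36 core and 19S genes (y axis), coloured by position in the complex. The interval of psmb2 (0.0072 to 1.75) is the 1 that leaves out 0, and that of psmb10 (-2.3 to 3.17) is the widest. Under scaling to nuclear reads 3 core genes and 2 of the 19S genes change from higher to lower.

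Several subunits are encoded by a pair of paralogs, whose reads are split by estimation where sequences are alike, so values of single paralogs are uncertain. Of the reads of psmd4b and psmd4a together, psmd4b took 54.6% and 67.2% in control and 55.9% and 43.8% in MZtulp3 embryos, and the groups overlapped (exact permutation p = 0.667, two-sided). The pair summed to 1920 and 3213 normalized counts in control and to 1668 and 1634 in MZtulp3 embryos. The sum, like psmd4b itself, was highest in control replicate 2.

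For psmc1 the share of psmc1a was 62.5% and 62.9% in control, 58.9% in MZtulp3 replicate 1 and 86.9% in MZtulp3 replicate 2, so a single library departed from the other 3. The pair summed to 1793 and 1152 in control and to 2154 and 1786 in MZtulp3 embryos, with overlapping groups. The share of psmd11a in its pair was 45.1% and 39.6% in control and 36.0% and 32.7% in MZtulp3 embryos. This was the 1 pair of 5 in which the groups were separate, at the smallest p that the permutation can give (exact p = 0.333, and 1.0 adjusted over the 5 pairs). The shares of psma2a and psma6a in their pairs overlapped between the groups, and in each 1 MZtulp3 library departed from the others, replicate 1 with 31.9% for psma2a and replicate 2 with 57.5% for psma6a.

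**Figure D5:**
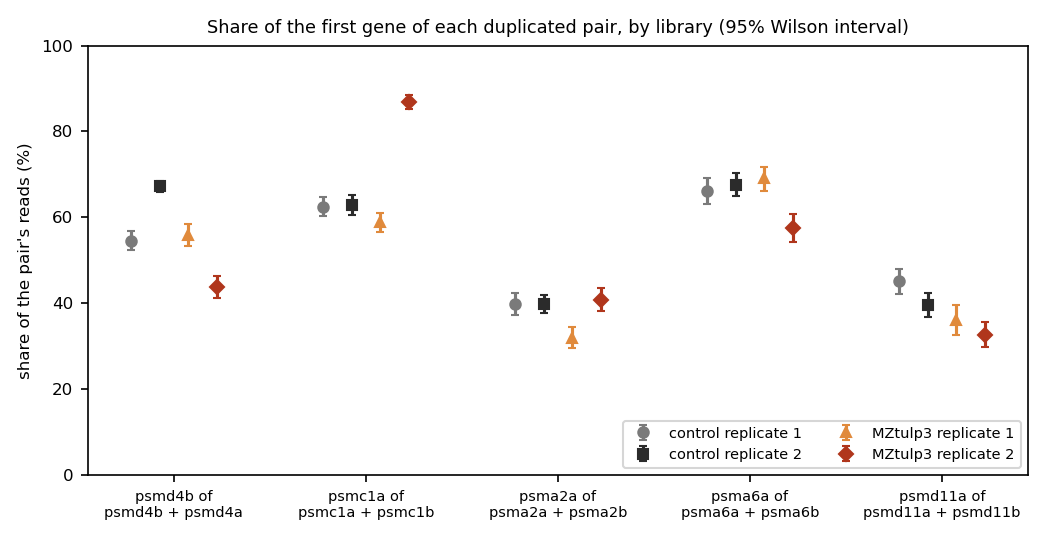
Share of reads of the first gene in each pair of paralogs (y axis, %) for 5 pairs, with 1 symbol per library and 95% Wilson intervals that cover counting error only. The share of psmc1a is 86.9% in MZtulp3 replicate 2 and 58.9 to 62.9% in the other libraries, and the share of psmd11a is 45.1 and 39.6% in the controls against 36.0 and 32.7% in the MZtulp3 libraries.

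The 5 members with a log2 fold change beyond 1 in size were psmd10, psmg3, psme1 and psmf1, genes of assembly and regulation, and psmc3ip, and none of them is a core or 19S subunit. Of the chaperones that assemble the 19S base, psmd10 had 142 and 43.6 normalized counts in control and 197 and 379 in MZtulp3 embryos. Both MZtulp3 values were above the controls (log2 fold change 1.76, standard error 0.86, adjusted p = 0.45 by limma), and the log2 fold change was 0.93 without control replicate 2. For psmd9 the values were 90.5 and 139 in control and 194 and 186 in MZtulp3 embryos, also without overlap (log2 fold change 0.75, adjusted p = 0.708 by limma). The third, psmd5, had 237 and 172 in control and 110 and 421 in MZtulp3 embryos, so its MZtulp3 replicates enclosed both controls, and its log2 fold change of 0.096 was -0.12 when scaled to nuclear reads and -0.86 without MZtulp3 replicate 2.

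The psmg genes encode chaperones that build the alpha ring. Normalized counts of psmg3 were 170 and 102 in control and 303 and 321 in MZtulp3 embryos. The groups were separate (log2 fold change 1.23, standard error 0.60, adjusted p = 0.453 by limma). Those of psmg2 were 226 and 106 in control and 542 and 166 in MZtulp3 embryos, and those of its partner psmg1 were 261 and 273 against 117 and 374. For both partners the MZtulp3 libraries lay apart from each other and overlapped the controls, with log2 fold changes of 0.95 and -0.35, and that of psmg1 was 0.48 without MZtulp3 replicate 1.

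Activators and inhibitors differed by a median of 1.21 on the log2 scale between the control replicates and 1.15 between the MZtulp3 replicates. Over all genes tested these medians were 0.83 and 1.0. The median level was 71.1 normalized counts for the activators and inhibitors and 117 for all genes tested. The PA28 subunit gene psme1 had 0 and 4.62 normalized counts in control, which are 0 and 7 reads, and 32.1 and 16.5 in MZtulp3 embryos. Its log2 fold change of 2.79 rested on the pseudocount, being 1.47 with 10 and 3.88 with 0.5 in place of 2, and ran from 1.92 to 3.65 with a library left out. Its partner psme2 had 11.6 and 71.3 in control and 108 and 8.26 in MZtulp3 embryos. The groups of psme2 overlapped, and its log2 fold change of 0.09 was -0.12 when scaled to nuclear reads.

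The nuclear activator gene psme3 had 377 and 592 normalized counts in control and 161 and 408 in MZtulp3 embryos, with overlapping groups (log2 fold change -0.87, standard error 0.59, adjusted p = 0.576 by limma), and the log2 fold change was -0.21 without MZtulp3 replicate 1 and -1.54 without MZtulp3 replicate 2. Of the paralogs of the PA200 activator, psme4b had 461 and 369 in control and 536 and 427 in MZtulp3 embryos (log2 fold change 0.21, and -0.0046 when scaled to nuclear reads). The other paralog, psme4a, had 0 and 17.8 in control and 34.4 and 0 in MZtulp3 embryos, 1 library at 0 in each group, and its direction depended on which library was left out. The inhibitor gene psmf1 had 34.7 and 57.4 in control and 184 and 93.2 in MZtulp3 embryos. These did not overlap (log2 fold change 1.51, standard error 1.08, adjusted p = 0.599 by limma).

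Reads in control alone were found for 3 of the 56 matching genes, psma6l, psmc3ip and psmb12, the last given above. The share of all genes with reads in control alone was not counted, so this count is not read as particular to the members. Genes with reads numbered 14750 and 15698 in control and 14649 and 13277 in MZtulp3 libraries. Normalized counts of psma6l, which is annotated by symbol as related to an alpha subunit, were 5.78 and 45.6 in control and 0 in both MZtulp3 libraries, and it did not pass the filter. It was at least 7.36-fold lower in MZtulp3 embryos against a floor of 3 reads per library. With control replicate 2 left out the bound was 1.66-fold, and with control replicate 1 left out 13.1-fold. The values of psmc3ip, known in mammals for a part in meiotic recombination and no subunit of the proteasome, were 29.8 and 18.5 in control and 0 in both MZtulp3 libraries. It was at least 6.93-fold lower, a direction that the filter on low values had fixed. With control replicate 1 left out the bound was 5.3-fold, and with control replicate 2 left out 8.56-fold. Its reads were 31 and 28 in control, and like psma6l it was lower in both MZtulp3 libraries than in both controls. The other gene that encodes no subunit, psme3ip1, had 662 and 191 in control and 495 and 152 in MZtulp3 embryos, and replicate 1 was the higher library in both groups (log2 fold change -0.37, and 0.52 without control replicate 1).

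Proteasome genes with other symbols were listed separately, and 15 of 18 were tested. Of these 5 were higher and 10 lower (median log2 fold change -0.39), 0 passed the threshold by limma, DESeq2 or edgeR and 0 had an unadjusted p under 0.05 by limma. The core assembly factor gene pomp had 574 and 472 normalized counts in control and 832 and 745 in MZtulp3 embryos (log2 fold change 0.60, adjusted p = 0.526 by limma). The lid subunit gene sem1 had 839 and 1326 against 722 and 589 (log2 fold change -0.69, adjusted p = 0.483 by limma). The groups were separate for both, pomp with higher and sem1 with lower MZtulp3 values. Among the 15 tested, 4 genes (26.7%) had both MZtulp3 libraries above both controls, against 20.0% of all genes. For 4 others (26.7%) both were below, against 23.3%, so both shares were near those of all genes.

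The ubiquitin receptor gene adrm1 had 1070 and 1202 in control and 1226 and 889 in MZtulp3 embryos, and these overlapped. The proteasome-bound deubiquitinase gene uchl5 had 548 and 780 in control and 334 and 430 in MZtulp3 embryos, with both MZtulp3 values below the controls (log2 fold change -0.78, adjusted p = 0.478 by limma). One of the zebrafish genes of the transcription factor NFE2L1, nfe2l1b, had 111 and 66.7 in control and 18.3 and 0 in MZtulp3 embryos, again without overlap. Its log2 fold change was -3.79 (standard error 1.84, unadjusted p = 0.0788 and adjusted p = 0.448 by limma). With MZtulp3 replicate 2 at 0, the size of this value depends on the pseudocount. The paralog nfe2l1a had 0 and 40.9 in control and 22.9 and 0 in MZtulp3 embryos, with 1 library at 0 in each group.

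Of 31 genes that supply ubiquitin or deliver substrates, 27 were tested, 14 higher and 13 lower (median log2 fold change 0.041, and -0.18 with 11 higher when scaled to nuclear reads). None passed the threshold by limma, DESeq2 or edgeR, and 4 (14.8%, against 12.8% of all genes) had an unadjusted p under 0.05, all with higher values in MZtulp3 embryos. The polyubiquitin gene ubc had 5167 and 4380 normalized counts in control and 9003 and 7150 in MZtulp3 embryos (log2 fold change 0.75, adjusted p = 0.379 by limma). The shuttle factor gene rad23b had 802 and 484 in control and 1227 and 1238 in MZtulp3 embryos (log2 fold change 0.98, adjusted p = 0.379 by limma). Groups were separate in both, and the other 2 of the 4 were the ubiquitin ligase scaffold gene cul3a and the conjugating enzyme gene ube2d2. The paralogs of rad23b went the other way. Those of rad23ab were 213 and 89.8 in control and 58.4 and 7.08 in MZtulp3 embryos, without overlap (log2 fold change -2.58, adjusted p = 0.508 by limma). For rad23aa the values were 190 and 111 against 125 and 3.54, with overlap (log2 fold change -2.47, adjusted p = 0.585 by limma). Its MZtulp3 replicate 1 lay between the controls, and replicate 2 was at the floor of 3 reads. In the list, 9 genes (33.3%) had both MZtulp3 libraries above both controls, against 20.0% of all genes. For 5 genes (18.5%) both were below, against 23.3%.

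Of 18 genes of antigen presentation and the interferon response, which are known to accompany inducible subunits, 7 were tested and 4 were higher. None passed the threshold by limma, DESeq2 or edgeR, and 2 (28.6%, against 12.8% of all genes) had an unadjusted p under 0.05 by limma. Of these, isg15, passed the filter through the MZtulp3 libraries alone, which fixed its direction. The signal transducer gene stat1a had 1266 and 2168 normalized counts in control and 633 and 67.3 in MZtulp3 embryos, and isg15, an interferon-induced ubiquitin-like gene, had 0 in both controls and 13.7 and 116 in MZtulp3 embryos. The groups of stat1a were separate (adjusted p = 0.379 by limma), while psmb8a and psmb9a were at 0 reads in the same libraries.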

How the data were processed

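The authors trimmed reads with Trim Galore, aligned them with STAR, estimated counts per gene with RSEM (genome build GRCz10) and used DESeq2 for the comparison. The signal values they deposited carry the name of counts, yet each is a count over the library's size factor, since 100% were whole multiples of 1 constant per library (tolerance 1e-04), and whole reads were recovered from them. The authors' deposited log2 values (regularized logarithms and log2 fold changes) and p-values (raw and adjusted) hold their own comparison and were not used.

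The groups were compared with limma (moderated test, variance trend) on log2 values after a pseudocount of 2 was added to the normalized counts, for genes with at least 10 in at least 2 of 4 libraries, with Benjamini-Hochberg adjustment over 14674 genes and a threshold of 0.05. The versions were DESeq2 1.42.0, edgeR 4.0.16 and limma 3.58.1 under R 4.3.3. The code was tested on simulated data with a lower dispersion than these libraries. That test therefore does not measure how many changes can be found at the spread of these libraries. Totals ran from 22589725 to 29735214 reads per library. Levels were not corrected for gene length. Shares of reads carry 95% Wilson intervals.

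Members and lists were chosen with earlier results of these data known. The symbols psma2a and psma2b replaced psma2 in the alpha ring list once the symbols of the table had been read. Named were members with an unadjusted p under 0.05, the highest and lowest tested member of each role group, the catalytic and tested inducible beta subunits, the ATPases, psmd14 and the tested psme genes. Other genes given with values were chosen after their values were seen.

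Alternatives were DESeq2, edgeR, TMM scaling, scaling to reads outside the mitochondrial genome, no filter, at least 10 in every library, pseudocounts of 0.5 and 10, the replicate number as a block, each library left out, and other definitions of core and regulatory genes. The core share without psmd4b, without psmb2 and without each library was added after seeing the data.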

Additional observations from a re-analysis of the deposited data

How the results depend on the processing

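None of the members passed the threshold under any alternative run. Over the 14674 genes tested, 0 passed by limma and 329 with the replicate block. DESeq2 called 326 of the 14343 genes it gave an adjusted p, of which 313 were among the 14674. When every library had to hold 10 normalized counts, 112 of 9435 genes passed. The other alternatives gave 0. The replicate numbers are shared by the groups, but the deviations of equally numbered libraries from their group means were uncorrelated (r = -0.00286 across genes, which are not independent replicates). With 2 libraries per group this value cannot decide whether equally numbered libraries shared a clutch or preparation. With the block 0 members were called.

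The members' median log2 fold change of 0.16 was 0.23 by DESeq2, 0.22 by edgeR, 0.12 with no filter, -0.063 scaled to nuclear reads and 0.097 to 0.21 with a library left out. The core minus 19S difference of 0.38 was 0.16 with every psmc, psmd, psme, psmf and psmg gene as regulatory and 0.22 to 0.53 with a library left out. The core share difference of 5.2 percentage points was 2.8 to 7.6 with a library left out.

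Some single genes changed direction. Scaled to nuclear reads, the log2 fold change was -0.12 for psmd5, -0.074 for psmb6, -0.19 for psmc3, -0.12 for psme2 and -0.0046 for psme4b. By DESeq2 and edgeR it was 0.025 and 0.025 for psmc1b and -0.03 and -0.04 for psmc3. With a library left out it ran from -0.86 to 1.06 for psmd5, -1.18 to 0.48 for psmg1, -0.27 to 0.19 for psmb7, -0.46 to 1.33 for psmb10 and -1.26 to 0.52 for psme3ip1. It ran from -0.098 to 0.39 for psmb6, -1.19 to 0.72 for psmc1b, -0.33 to 0.03 for psmc2, -0.43 to 0.50 for psmc3, -1.62 to 1.80 for psme2 and -1.65 to 2.53 for psme4a. The cause of these changes was not tested. Other named genes kept their direction with a library left out but moved by over 1.5 times, such as psmg2 (0.10 to 1.79), psmd14 (0.053 to 0.81), psmd12 (-0.78 to -0.26), psmd9 (0.44 to 1.05) and psmb1 (0.12 to 0.41).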
